A study of Rattus norvegicus with 6 samples.

Results

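REST binding near genes of neural and developmental transcription factors was described in HCN cells, a culture of neural stem cells from the hippocampus of adult rats. The members are REST ChIP-seq sites whose nearest gene, as annotated by the authors, has a name beginning with one of 28 stems of such factors, for example Neurod, Lhx, Pou, Pax, Klf, Fox, Irx or Zic. They numbered 46 of the 1775 sites called in quiescent cells (iQNPs) and 26 of the 778 sites called in proliferating cells (TAPs). The iQNP sites lay nearest to 36 genes and the TAP sites to 23 genes. Together these were 37 genes, of which 22 had a site in both conditions, 14 had one in iQNPs alone and 1 had one in TAPs alone. The names covered 19 of the 28 stems, and Dlx, Nkx, Gata, Mef2, Nr4a, Insm, Bhlhe and Hey were among the stems without a member site.

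HCN cells are one line derived from the adult rat brain, here taken at multiple passages, so no comparison below is between animals. All libraries came from cells grown as a monolayer in DMEM:F12 with N2 and FGF2, and iQNPs also received BMP4. REST was precipitated in each condition once with a commercial antibody from Millipore and once with a homemade one, a mixture of REST14 and REST17, and each condition had 1 input library. The comparison asks where the protein sits in quiescent and in proliferating cells. A site entered the tables where both antibodies called a peak, at depths of 25183774 to 29781938 tags per library. Every site was at least 4.01-fold above its input. The ChIP data hold no expression values, so the label of the cells could not be checked against marker genes.

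REST, the RE1-silencing transcription factor, is a zinc finger repressor that binds the RE1 element and brings histone deacetylases, demethylases and other corepressors to DNA. It is best known for holding neuronal genes silent outside neurons and in progenitors. Many RE1 elements lie near genes of transcription factors that direct neuronal fate, and such elements can sit far from the start of transcription.

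Most of the sites lay far from the genes they are named after. The median distance to the transcription start site (TSS) was 63.2 kb for the 46 iQNP members, against 34.2 kb for all iQNP sites. Intergenic sites made up 34 of the 46 (73.9%; 95% Wilson interval, 59.7 to 84.4%), against 54.8% of all iQNP sites, and 9 were intronic. Within 10 kb of a TSS lay 11 of 46 sites (23.9%; 13.9 to 37.9%), against 34.6% of all, which lies within that interval. A single member lay in a promoter, at Neurod4, against 14.8% of all iQNP sites. The intervals cover counting error alone, and neighbouring sites are not independent.

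Neurod4 encodes a basic helix-loop-helix (bHLH) factor of neuronal differentiation. Its site, chr7:8547083-8547135 in the rn4 assembly, was centred 21 bp after the TSS. The promoter is shown because it is the only one among these genes with a REST site at the start of transcription. RefSeq gives it in another assembly, GRCr8, at chr7:7752775-7753074 on the minus strand. The capitals mark the 50 bases after the start and the lower case letters the 250 bases before it.
Neurod4 promoter: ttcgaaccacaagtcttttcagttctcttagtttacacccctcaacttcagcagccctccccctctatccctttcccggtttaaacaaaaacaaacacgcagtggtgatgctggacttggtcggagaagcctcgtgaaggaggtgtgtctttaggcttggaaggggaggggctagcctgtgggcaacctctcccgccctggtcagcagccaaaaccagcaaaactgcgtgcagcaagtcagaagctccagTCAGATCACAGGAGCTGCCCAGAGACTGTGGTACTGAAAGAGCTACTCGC
The REST motif holds a left part, CAGCACC, and a right part, GGACAG. On both strands of this window neither part was found. Among all 33469 promoter windows of this length, 6.78% held the left part, 21.7% the right part and 0.0299% both in order with 2 bases between them. The window comes from another assembly than the site, and no match says only that these letters are not in it. RefSeq windows were found for 28 of the 37 genes, and of their 29 windows, 2 held the left part (Meis3 and Zic5) and 8, from 7 genes, the right part (Foxb2, Irx2, Klf6, Meis3, Neurog3, Tbx15 and Tbx5). The REST sites of those genes lay over 1 kb from the TSS, so these windows were not printed.

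**Figure D1:**
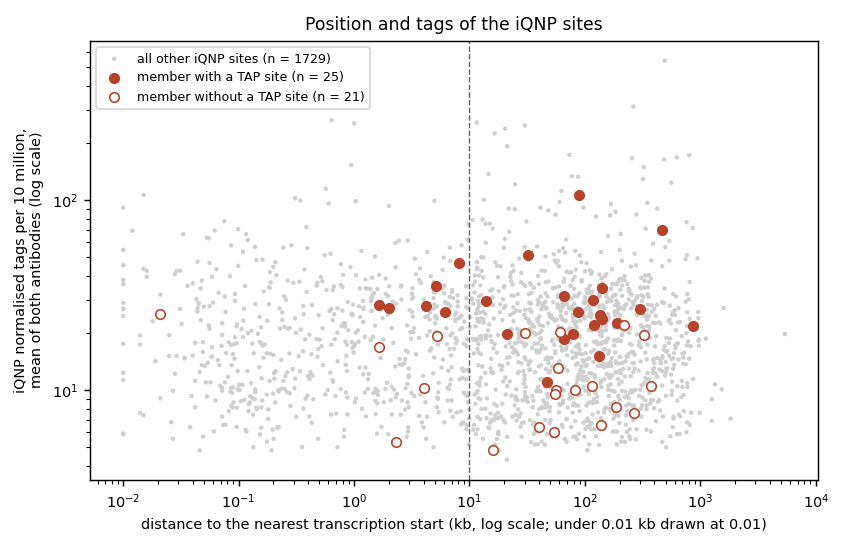
Distance of each iQNP site from its nearest transcription start (kb, log scale) against its normalised tags per 10000000, as the mean of both antibodies (log scale). Red points are the 46 sites of transcription factor genes, filled for the 25 with a TAP site and open for the 21 without. The dashed line marks 10 kb, and 11 of the 46 lie to its left.

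Tags are given as the number per 10000000 tags of a library. In iQNPs the members had a median of 20.2 normalised tags, as the mean of both antibodies, against 17.9 for all sites, and ranged from 4.84 at Zic1 to 106.9 at Lhx2. In TAPs the median was 10.8, against 12.6 for all sites, and the range was 6.48 at Foxb1 to 48.3 at Lhx2. The commercial antibody had more tags than the homemade one at 42 of 46 iQNP members (91.3%) and at 21 of 26 TAP members (80.8%), against 83.3% and 73.4% of all sites. Of the 9 genes with 2 or more iQNP sites, 2 had a TAP site at each of them, 5 at some and 2 at none.

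A TAP site with its centre within 50 bp was found for 25 of the 46 iQNP members (54.3%; 40.2 to 67.8%). This held for 42.6% of all iQNP sites, which lies within that interval. In the other direction 25 of 26 TAP members had an iQNP site (96.2%), against 97.2% of all. The share followed the number of tags in iQNPs. None of the 6 members with 8 tags or fewer had a TAP site, 1 of 8 did with over 8 to 12 tags, 4 of 8 with over 12 to 20, 17 of 21 with over 20 to 50 and all 3 with over 50. Over all sites the same bands gave 1 of 234, 12 of 323, 142 of 431, 503 of 673 and 98 of 114. The centres of paired sites were 2 to 28 bp apart, while the nearest TAP site to an unpaired member was 8949 bp away or more. Within 10 kb of a TSS 6 of 11 members had a TAP site (54.5%; 28.01 to 78.7%), against 39.3% of all iQNP sites there, and farther out 19 of 35 did (54.3%; 38.2 to 69.5%), against 44.4% of all.

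**Figure D2:**
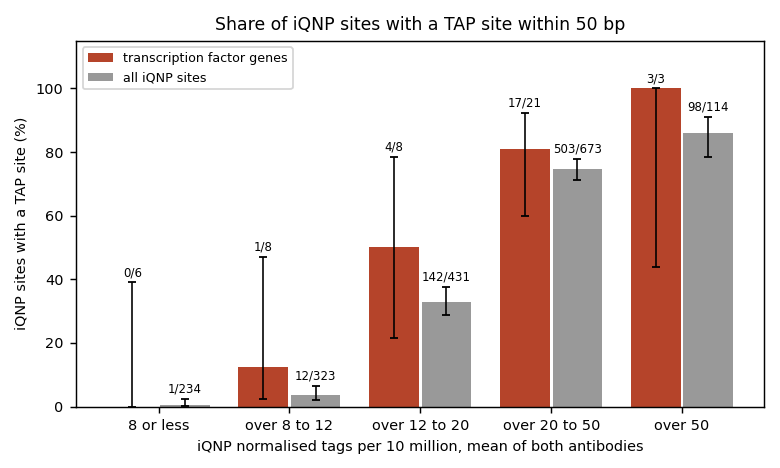
Percentage of iQNP sites with a TAP site within 50 bp, by the mean normalised tags of the site in iQNPs. Red bars are the transcription factor genes and grey bars all iQNP sites; black bars are 95% Wilson intervals and the counts stand above them. Both rise with the tags, from 0 of 6 to 3 of 3 for the members.

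The bHLH factors drive neuronal and oligodendrocyte fates, and 6 of their genes had 8 iQNP sites, of which 2 had a TAP site. Both were at Neurod2, a factor of maturing excitatory neurons. Its site 4.17 kb downstream of the TSS, at chr10:87095473-87095526, had 31.6 tags with the commercial and 23.8 with the homemade antibody in iQNPs, and 12.8 and 9.93 in TAPs. The iQNP libraries were both above the TAP libraries there. Its other site, 14.0 kb from the TSS at chr10:87085599-87085686, had 35.8 and 23.2 tags in iQNPs and 27.6 and 14.3 in TAPs, and here the conditions overlapped. The annotation placed its iQNP peak in a CpG island and the paired TAP peak in plain intergenic sequence. It is called the Neurod2 site in the CpG island below, after the iQNP peak.

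The other bHLH genes named here had sites in iQNPs alone. Neurod4 had the most tags of all members without a TAP site, 25.9 and 24.2, close to each other between the antibodies. Neurog3, a proneural factor also needed for endocrine pancreas, had 21.6 and 17.1 tags at 5.26 kb. Neurod1, a factor of granule neuron maturation, had a weak site in its second exon with 5.32 and 5.37 tags and another 4.04 kb upstream with 11.7 and 8.73. Olig1, of the oligodendrocyte lineage, had 1 site at 56.0 kb with 11.4 and 8.73 tags.

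The LIM homeobox factors specify regions and neuron types of the brain and spinal cord, and 4 of their 5 iQNP sites had a TAP site. Lhx2, which patterns the cortex and hippocampus, held the strongest member in both conditions, 88.6 kb from its TSS at chr3:18218012-18218070. It had 123.1 and 90.7 tags in iQNPs and 56.0 and 40.5 in TAPs, above 98.6% of all iQNP sites. Lhx5, which acts in hippocampal development, came next in this group with 52.9 and 40 tags in iQNPs and 26.1 and 27.4 in TAPs at a site 8.19 kb upstream. At Lhx1, a related factor, the antibodies ranked differently in the conditions, with 27.7 and 19.5 tags in iQNPs and 7.39 and 11.5 in TAPs. Lhx4, a factor of motor neurons and the pituitary, had 2 intronic sites 8.95 kb apart with like tags in iQNPs. The one in intron 1 had 25.5 and 14.1 tags and a TAP site with 7.39 and 5.96, and the one in intron 2 had 23.4 and 16.8 tags and no TAP site.

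The POU factors direct late steps of neuron differentiation. Of their 5 iQNP sites, 2 had a TAP site, both at Pou4f2, a factor of retinal ganglion cells. The one 5.14 kb downstream, at chr19:31394013-31394074, had 41.5 and 29.2 tags in iQNPs and 18.3 and 15.5 in TAPs. The one 1.66 kb upstream had 36.5 and 19.8 tags in iQNPs and 16.7 and 17.5 in TAPs, so that with the homemade antibody alone the conditions were nearly level. In both cases the conditions did not overlap. Pou3f2, a factor of cortical neurons, had 24.8 and 19.1 tags at a site 216.8 kb upstream. Pou4f3, a factor of inner ear hair cells, had 18.8 and 14.8 tags in its 3′ UTR. Neither of these genes had a TAP site.

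Among the other homeobox and Pax genes, 5 of 9 iQNP sites had a TAP site. Irx1 and Irx2, neighbouring Iroquois genes of neural patterning, each had one distant site called in both conditions and a weaker one called in iQNPs alone. Irx1 had 23.4 and 20.1 tags in iQNPs and 6.22 and 8.74 in TAPs at 865.5 kb, and 7.80 and 5.37 at its weaker site. Irx2 had 31.2 and 22.2 tags in iQNPs and 6.61 and 11.9 in TAPs at 303.6 kb, and 11 and 5.37 at a site in an MTEa repeat. Onecut1, a factor of liver and of several neuron types, had 30.9 and 20.8 tags in iQNPs and 12.8 and 11.5 in TAPs in its intron, 6.14 kb from the TSS. A second Onecut1 site, 322.7 kb upstream, had 19.2 and 19.8 tags in iQNPs and no TAP site.

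Pax2, of the midbrain and hindbrain boundary, had 35.8 and 26.9 tags in iQNPs and 19.1 and 13.1 in TAPs. Its iQNP libraries were both above the TAP libraries. Pax7, known from muscle satellite cells and the dorsal neural tube, had an intronic site in iQNPs alone, with 14.2 and 12.1 tags. Meis3, a hindbrain homeobox factor, was the single gene with a TAP site and no iQNP site. It had 8.94 and 6.75 tags in intron 10 of 13, at chr1:76522025-76522079, and the nearest iQNP site was 34886 bp away.

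All 3 forkhead sites were called in both conditions. Foxk1, a factor of metabolism and muscle progenitors, had 75.9 and 63.5 tags in iQNPs and 32.7 and 27.8 in TAPs, although the site lay 469.6 kb upstream of its TSS. Foxb1, of the hypothalamus, had 19.2 and 18.1 tags in iQNPs and on average the fewest of any TAP member, 7 and 5.96. Foxb2 had 38 and 21.8 tags in iQNPs and 19.4 and 11.9 in TAPs.

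Among zinc finger factors, 6 of 9 iQNP sites had a TAP site. Myt1, a factor that favours neuronal differentiation, had 60.3 and 42.3 tags in iQNPs and 33.4 and 26.6 in TAPs at a site 32.05 kb upstream, and its relative Myt1l had 11 and 9.07 in iQNPs alone. Klf7, which acts in axon growth, had the most sites of any member gene, 3, all upstream. At 87.8 kb it had 29.8 and 21.8 tags in iQNPs and 9.72 and 6.75 in TAPs, and at 188.2 kb it had 29.1 and 15.8 in iQNPs and 12.1 and 8.34 in TAPs. The third, at 40.4 kb, had 6.74 and 6.04 tags in iQNPs and no TAP site. Klf6 had 28.7 and 15.4 tags in iQNPs and 8.56 and 8.34 in TAPs.

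The Zic genes act in the cerebellum and the neural tube. Zic5 had 36.5 and 32.6 tags in iQNPs and 20.2 and 16.7 in TAPs, at a site in an intron of Clybl. Zic4 had 25.2 and 14.1 tags in iQNPs and 9.72 and 6.75 in TAPs. Zic1 lies beside Zic4, and its site, 112.2 kb from that of Zic4, had the fewest tags of all members, 4.97 and 4.70, and no TAP site.

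The remaining genes belong to smaller groups. Nr2f1 (COUP-TFI), a nuclear receptor that sets cortical areas, had nearly the same tags in both conditions, 13.8 and 8.39 in iQNPs and 12.4 and 7.54 in TAPs, at chr2:5747274-5747334. Sox14, of inhibitory neurons, had 28.7 and 21.2 tags in iQNPs and 11.3 and 7.94 in TAPs. Tbx15, a skeletal T-box factor, had 32.3 and 21.8 tags in iQNPs and 13.6 and 10.3 in TAPs, 2.02 kb from its TSS. Tbx5, a heart factor, had 14.2 and 6.72 tags in an L2 repeat, and Ebf1, of B cells and neurons, had 12.4 and 8.73. Both were called in iQNPs alone. Paxip1 carries the stem Pax by name and encodes a PAX-interacting protein, not a Pax factor. Its 2 sites, 1 of them in an intron of Dpp6, had 6.03 and 6.04 and 6.39 and 8.73 tags in iQNPs and no TAP site.

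**Figure D3:**
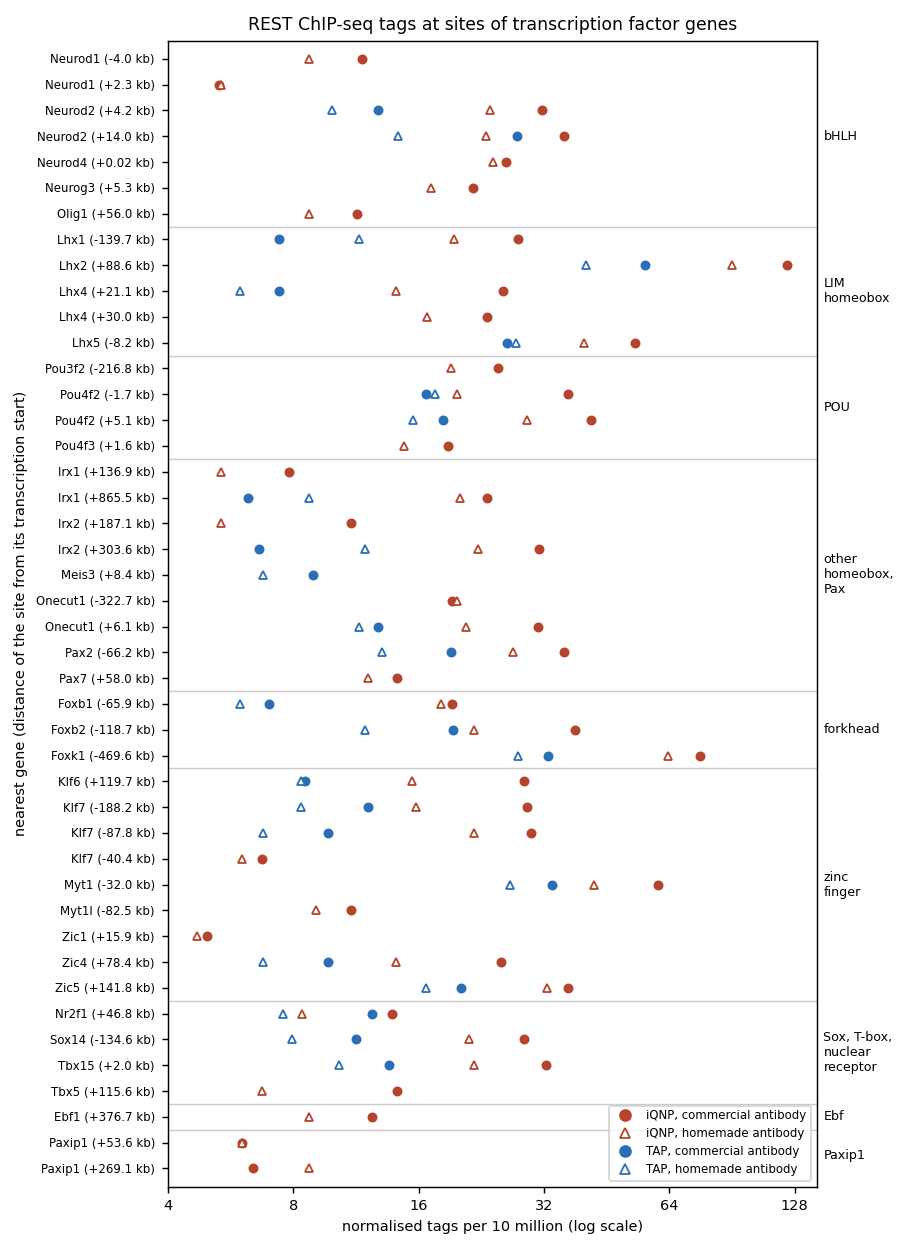
Normalised tags per 10000000 (log scale) at the member sites named in the text, by gene and distance from its transcription start, in groups of related factors. Red is iQNP and blue TAP, circles the commercial and triangles the homemade antibody; a row without one colour had no site in that condition. Lhx2 has the highest values in all 4 libraries, and the iQNP symbols lie to the right of the TAP symbols in most rows with both.

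At the sites called in both conditions, tags were higher in iQNPs. With each antibody, all 25 shared members had more normalised tags in iQNPs, as did 745 of all 756 shared sites. On the log2 scale the tags in iQNPs exceeded those in TAPs by a median of 1.15 (range, 0.15 to 1.65), against 1.05 over all shared sites. The commercial antibody gave a median of 1.25 and the homemade one 0.92. Both iQNP libraries were above both TAP libraries at 23 of 25 members, and this held for 92.7% of all shared sites. The exceptions were Nr2f1 and the Neurod2 site in the CpG island. Relative to the input, the median log2 ratio was 0.84 and 17 of 25 members were above 0, against 0.81 and 561 of 756. The Neurod2 site in the CpG island had the highest log2 ratio of the 25 on that scale, 3.45, and Pax2 the lowest, -1.89. The scaled input at these sites was few tags, from 0.4 to 8.

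**Figure D4:**
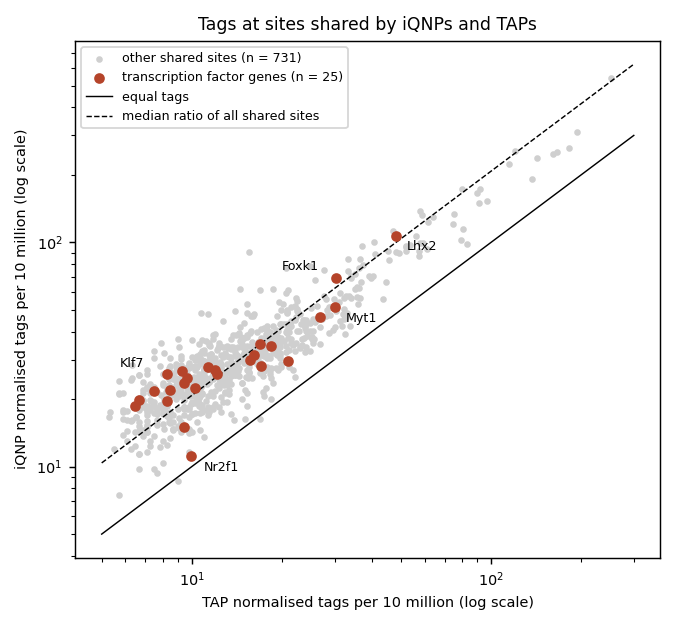
Mean normalised tags per 10000000 of both antibodies in TAPs and in iQNPs (log scales) at the sites shared by the conditions. Red points are the 25 sites of transcription factor genes and grey points the other 731 shared sites. All red points lie above the line of equal tags, Nr2f1 nearest to it, and they scatter around the dashed line at the median ratio of all shared sites, 1.05 on the log2 scale.

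In edgeR's quasi-likelihood test over all 756 shared sites, with the sequencing depths as library sizes, 19 of 25 members had more tags in iQNPs at an adjusted p under 0.05. Across all shared sites 68.4% did, so the members' count, 19 of 25, is near the background. No member and no other shared site had more tags in TAPs past the threshold. By group the test called 3 of 3 forkhead sites, 5 of 6 zinc finger sites, 4 of 5 of the other homeobox and Pax sites, 3 of 4 LIM homeobox sites, 2 of 3 at Sox14, Tbx15 and Nr2f1, 1 of 2 POU sites and 1 of 2 bHLH sites. The design holds 2 libraries per condition, each with a different antibody, so an exact permutation test of a single site could not go below a two-sided p of 0.333. A difference common to all sites cannot be told apart from a difference between the libraries of the conditions.

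The largest log2 fold change in this fit was at the Klf7 site 87.8 kb upstream, 1.64 ± 0.40 (SE; edgeR adjusted p = 0.000752). Close behind were Lhx4 at 1.56 ± 0.39, Irx1 at 1.55 ± 0.40, Irx2 at 1.53 ± 0.40 and Foxb1 at 1.52 ± 0.39. Their errors overlap, so the order among these 5 is not resolved. The antibodies gave quite different ratios at Irx2, 2.24 with the commercial and 0.90 with the homemade one on the log2 scale, and at Lhx1, 1.91 and 0.76. At Klf7 and Foxb1 they were close, with 1.62 and 1.69 and with 1.46 and 1.60.

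The smallest change was at Nr2f1, with a log2 fold change of 0.14 ± 0.37 (edgeR adjusted p = 0.699), which ranked 752 of the 756 shared sites. The Neurod2 site in the CpG island followed with 0.49 ± 0.40 (adjusted p = 0.238). The upstream Pou4f2 site had 0.71 ± 0.40 and Myt1 0.78 ± 0.43, with adjusted p-values of 0.088 and 0.0879, and Lhx5 had 0.79 ± 0.42 (adjusted p = 0.0799). None of these 5 sites passed. At the other Neurod2 and Pou4f2 sites the log2 fold changes were 1.28 ± 0.39 and 1.06 ± 0.41, both past the threshold. Whether the sites of a gene differed from each other in this change was not tested.

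The call depended on how the antibodies and the scale were treated. With the antibody as a block, 24 of 25 members had more tags in iQNPs, against 94.8% of all shared sites, and Nr2f1 was the exception (adjusted p = 0.607). TMM normalization sets the typical shared site to no change and so lowers the median of all shared sites from 1.05 to -0.0068. With it, 0 of 25 members had more tags in iQNPs, against 5.16% of all. At an unadjusted p under 0.05 in that edgeR fit there was 1 of 25, against 93 of all 756. On that scale 2 of 25 had more in TAPs, against 6.75% of all. They were Nr2f1, with a log2 fold change of -0.91 (adjusted p = 0.0141), and the Neurod2 site in the CpG island, with -0.57 (adjusted p = 0.0411). The Klf7 site with the largest change then had 0.59 (adjusted p = 0.121). Leaving out the commercial or the homemade iQNP library left the TAP pair alone to give the spread, and the lone iQNP library was assumed to vary like it. The median log2 fold change of the members was then 0.82 and 1.35, against 0.79 and 1.26 over all shared sites.

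With 1 TAP library left out, the spread came from the iQNP pair alone, and the lone TAP library was assumed to vary like it. No member was called then in edgeR, and none of the 756 shared sites (0% of them in either fit). The log2 fold changes stayed about as large. Their median over the 25 members was 1.32 without the commercial TAP library and 0.99 without the homemade one, against 1.14 with all libraries. Their median SE was 0.74 and 0.71, against 0.40.

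**Figure D5:**
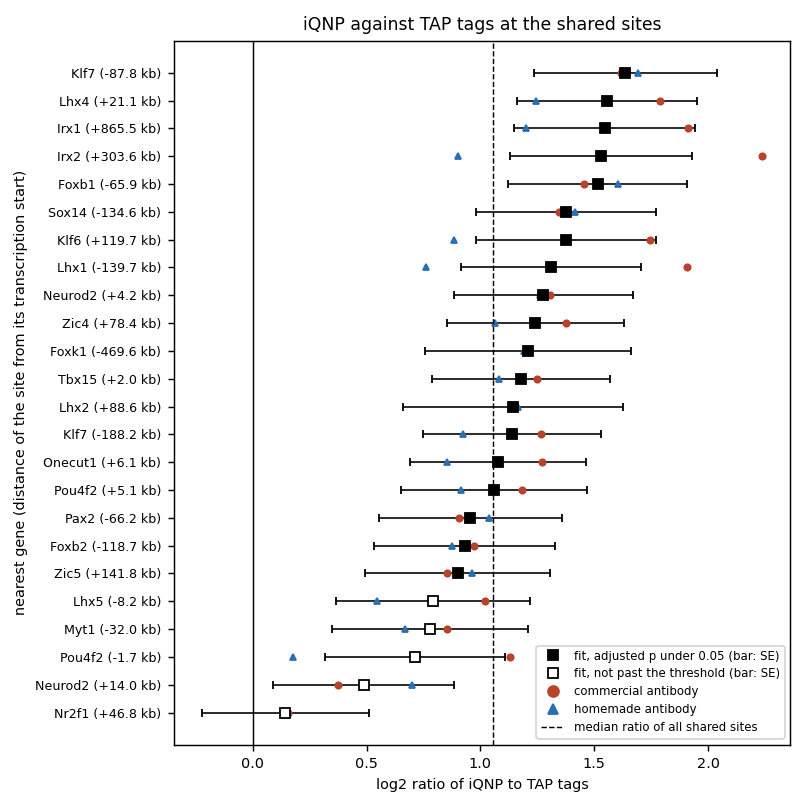
Log2 ratio of iQNP to TAP tags at 24 shared sites of transcription factor genes, those named in the text. Squares are the edgeR log2 fold changes with their SE, filled where the adjusted p is under 0.05; circles and triangles are the ratios with the commercial and the homemade antibody, and the dashed line is the median of all shared sites. The values run from 0.14 at Nr2f1 to 1.64 at Klf7, and the antibodies lie farthest apart at Irx2.

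Neural transcription factors that the name stems do not reach were read from a separate list of 32 genes. In iQNPs 6 of them had 8 sites, at Atoh1, Barhl1, Npas4, Scrt1, Scrt2 and Six3. Of these sites 4 had a TAP site, against 42.6% of all iQNP sites. All iQNP sites together lay nearest to 1368 genes. The share of all rat genes with a site was not determined, so the gene counts of this list and the next have no background. Npas4, an activity-induced factor, had 326.0 and 201.8 tags in iQNPs and 217.0 and 146.5 in TAPs at a site 0.64 kb from its TSS, more than any member. Scrt1, a neuronal repressor of the Snail family, had 131.3 and 73.5 tags in iQNPs and 88.7 and 69.9 in TAPs in its promoter. The log2 fold changes of these 4 shared sites were 0.37 to 0.64, and in edgeR 0 of 4 passed the threshold (0 at an unadjusted p under 0.05), against 68.4% of all shared sites. DESeq2 at the same depths also called 0 of 4, against 67.3% of all. With the antibody as a block 2 of 4 had more tags in iQNPs, against 94.8% of all, Barhl1 (adjusted p = 0.00337) and Scrt2 (adjusted p = 0.0495). With TMM normalization 2 of 4 had more in TAPs, against 6.75% of all, Npas4 (adjusted p = 0.0149) and Scrt1 (adjusted p = 0.000358). Of 16 genes of REST and its corepressors, 1 had an iQNP site, Ctbp1 in its promoter with 8.51 and 6.38 tags, and none had a TAP site.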

How the data were processed

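REST was profiled by ChIP-seq in HCN cells under both conditions. The authors mapped reads to rn4 (Bowtie2) and used HOMER to find peaks over the input (limit of 1e-04 on the Poisson p-value, which is deposited for each peak), separately for each antibody, keeping those that merged within 50 bp. The deposited total tags are counts per peak window. The authors scaled the normalised tags, a signal, to 10000000 tags per library, and brought the input tags, a signal as well, to the size of the ChIP library. The deposited fold over input is a ratio. Nearest genes, classes and TSS distances came from the authors' annotation (1758 of 1775 iQNP and 771 of 778 TAP sites had a gene name). Some genes with these name stems are not reported here, and some that enter the counts are not described singly.

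Sites were paired one to one by centres within 50 bp, closest first. The 756 pairs were tested on total tags with edgeR 4.0.16 (R 4.3.3; glmQLFit, Benjamini-Hochberg over all pairs), with depths of 25183774 to 29781938 tags recovered from total over normalised tags as library sizes and no block. The SE of an edgeR log2 fold change was derived as its absolute value over the square root of the test's F statistic. The code was tested on simulated data. Alternatives were DESeq2 1.42.0, TMM, an antibody block, other distances and limits, and leaving out each library. The replicate number in the labels names the antibody, and the labels give no shared culture. With 2 pairs, deviations of same-antibody libraries had a correlation of 0.0445. That value does not register a difference between the antibodies common to all sites, which the block takes up. Shares have 95% Wilson intervals (scipy 1.17.1).

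Every library's values are given for sites within 10 kb of a TSS, the 5 with the most tags in each condition, the 5 largest and smallest changes, the 5 strongest unpaired sites and genes with several sites, except at those genes. Other members are given in part beyond this rule. The members and lists were chosen with earlier results of these data known.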

Additional observations from a re-analysis of the deposited data

How the results depend on the processing

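Of 33 alternative values of counts, shares and medians, 24 stayed within 1.5 times a count or within the spread or interval of a share or median, and 9 moved further. Some of the 24 could hardly have moved. Paxip1 had no shared and no TAP site, so leaving it out could not change those counts. The nearest TAP site to an unpaired member was 8949 bp away, so wider pairing could add no shared member. The medians with either antibody left out were judged against the spread of those same medians. The count of shared members with more tags in iQNPs, 19 of 25, was 0 with TMM normalization and 0 with DESeq2's own size factors (0 at an unadjusted p under 0.05, 12 adjusted p-values not given), which both set the typical shared site to no change. Over all 756 shared sites these fits called 39 and 3. The members' count was 12 of 17 with at least 20 tags in each library (fewer sites tested), against 396 of all 599. It was 20 with DESeq2 at the same depths, against 67.3% of all shared sites. With the antibody as a replicate block it was 24, against 94.8%. With 1 library left out, only the other condition's pair gave the spread. The members' median log2 fold change was then 0.82 to 1.35, against 1.14 with all libraries. The coefficient of variation fell from 0.211 to 0.0897 with the block, and the 24 calls with it are no larger effect. The median log2 ratio, 1.15, was 0.093 with TMM normalization and 0.84 on fold over input, whose cause was not tested, and 0.92 to 1.25 with either antibody left out. Within 1 kb of a TSS lay 2.17% and within 100 kb 63.0% of iQNP members, in place of 23.9% within 10 kb, by construction. Over all iQNP sites the shares were 19.4% within 1 kb, 67.8% within 100 kb and 34.6% within 10 kb. The share with a TAP site was 45.9% to 56.8% under all its alternatives.

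Of 168 values at the shared sites named, 92 kept their direction and side of the threshold. With the sign kept, 57 lost the call (16 of them with TMM normalization, the rest with 1 library left out) and 9 gained one. The other 10 changed sign and were counted apart. Among them, Pax2, Foxb2 and Zic5 also lost their call with TMM normalization, and Nr2f1 and the Neurod2 site in the CpG island were then called with more tags in TAPs. With TMM normalization the log2 fold change was -0.096 at Pax2, -0.13 at Foxb2, -0.15 at Zic5, -0.26 at Lhx5, -0.28 at Myt1, -0.35 at the upstream Pou4f2 site, -0.57 at Neurod2 in the CpG island and -0.91 at Nr2f1. With 1 library left out, Nr2f1 ran from -0.25 (without the commercial iQNP library) to 0.55 (without the commercial TAP library), and was -0.17 without the homemade TAP library.

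A site counts as present where both antibodies called it, and the lowest values of any TAP site were 4.67 and 4.76 normalised tags with the commercial and the homemade antibody. A missing call is not a measured absence of REST. Only 2 libraries per condition, with different antibodies, estimate the spread.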
